A study of Saccharomyces cerevisiae with 12 samples.

Results

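The interior of budding yeast chromosome XV was examined as 1009 rows of 1000 bp out of 11623 usable nuclear rows (8.68%). Rows were taken when their centre lay more than 30 kb from either end of the chromosome, between 30001 and 1056000 on build sacCer3. A stretch of 5 rows near the right end that later eco1 libraries lack was left out with the adjoining row on each side, and so were 17 rows with a ratio of exactly 0 in any column. Of the members, 293 rows lie left and 716 right of the centromere, which lies between the end of YOL001W at 326130 and the start of YOR001W at 326832.

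DNA content was measured by sequencing genomic DNA (Nextera XT libraries) of an eco1-W216G mutant (strain JG2087) and of a wild type control (w303a). Both strains were arrested in G1 with α-factor in rich medium (YPD), washed with protease, and collected at 0, 20 and 40 min of release. Each strain has 2 libraries at every time point. The labels do not say whether the 2 libraries came from separate cultures, so p-values measure at most the spread between libraries. The deposited values are log2 ratios of a 20- or 40-min library to a 0-min library, and each column was centred here on the median of the members. A centred value above 0 means more DNA, relative to the rest of the chromosome XV interior, than at 0 min.

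In S phase each chromosome is copied from many replication origins that fire at characteristic times, and regions copied early reach a higher copy number before regions copied late. In budding yeast the centromeres are among the regions copied early. Eco1 acetylates the cohesin subunit Smc3 as DNA is copied, which makes sister chromatid cohesion stable. In a population of cells, fewer cells that have replicated a region and partial replication of it in more cells cannot be told apart.

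Before the results, the strain marks of the libraries were compared, because each eco1 ratio depends on the library below the line. Whole reads of all 12 libraries could be recovered from the ratios (5293237 to 10362815 mapped reads). Both later columns of each replicate were divided by 1 common library, which the files do not name. In the 5 rows XV:1057001-1062000 the eco1 20- and 40-min libraries held 1, 4, 3 and 2 reads. The libraries that the eco1 columns were divided by held 3967 and 3459 reads there, and all 6 wild-type libraries held 2550 to 4397. The stretch stood at 127% and 136% of its flanks in the eco1 denominators, against 128% and 136% in the wild-type ones. Chromosome I differed too, but there the eco1 denominators lay above all 6 wild-type libraries. Relative to the wild-type denominators its median log2 level was 0.67 to 0.71 in the eco1 20- and 40-min libraries, 0.12 in both eco1 denominators, and 0.037 and 0.057 in wild type at 20 min.

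The eco1 denominators, taken to be the eco1 0-min libraries, thus do not share the lost stretch of all 4 later eco1 libraries. Chromosome I is raised only weakly in these 0-min libraries. Whether those libraries are of another strain, are mislabelled or come from a different culture was not tested, and a difference between cell populations cannot be told apart from replication in the eco1 ratios. The main strain comparisons are for this reason given also with all 8 later libraries divided by the mean of the 2 wild-type denominators, a setting chosen after the data were seen and called the common denominator here.

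At 20 min, eco1 lay below wild type at 8 of the 15 peaks of chromosome XV and above it at 7. The lowest eco1 values relative to wild type were found near IFM1, DNL4 and the tRNA genes YNCO0004C and YNCO0016W. No window and no peak passed the test in the fit of all columns. Of 103 windows of 10 kb, 0 passed (limma, Benjamini-Hochberg adjusted p under 0.05), as did 0% of the 1179 nuclear windows. Without adjustment 15 windows had p under 0.05, as had 15.9% of nuclear windows. The eco1 columns both lay below both wild-type columns in 31 windows and above them in 15. Over the nuclear genome these shares were 32.1% and 21.5%, so the chromosome XV counts do not stand above the background. With the common denominator the counts were 32 and 24, with nuclear shares of 30.4% and 22.6%. Across windows, the deposited strain difference correlated at r = -0.54 with the difference between the eco1 and wild-type denominators.

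**Figure D1:**
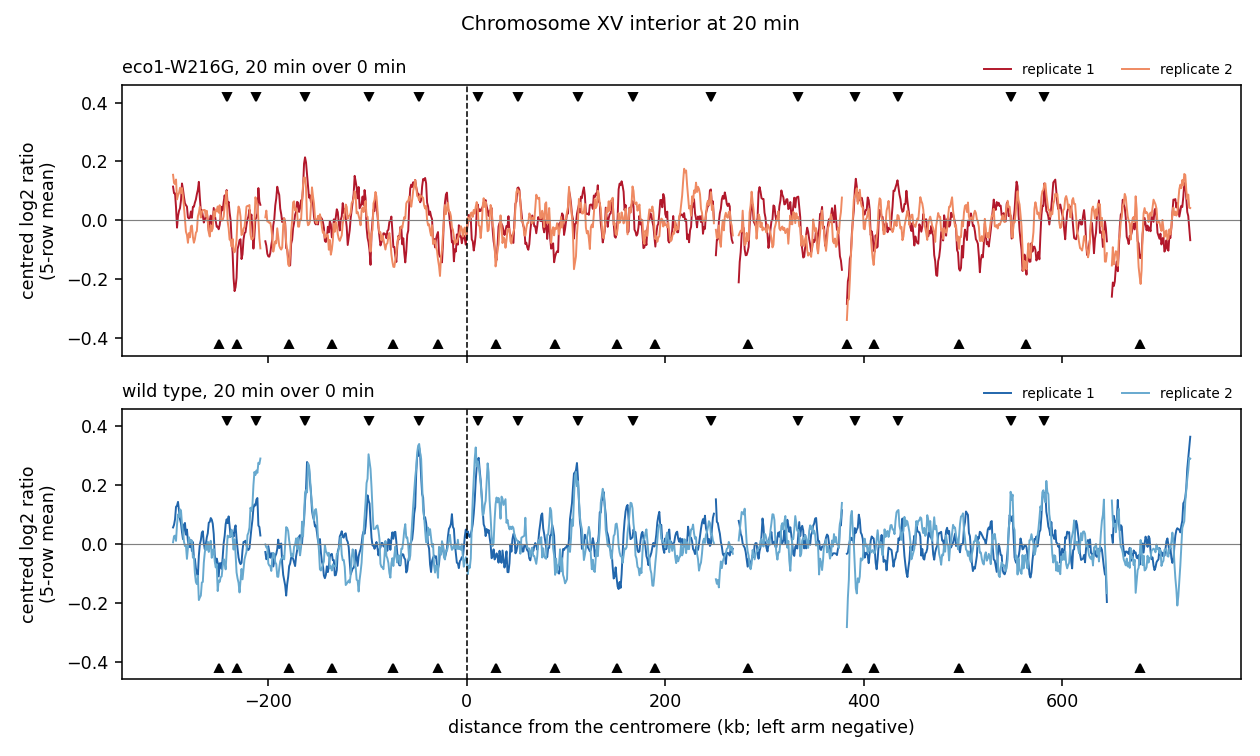
Running mean over 5 rows of the centred log2 ratio at 20 min against distance from the centromere in kb, eco1 above wild type, with 1 line per replicate. Triangles mark the 15 peaks and 16 troughs of the mean of the 4 columns. Near IFM1 and DNL4 the wild-type lines reach 0.28 to 0.34 and the eco1 lines 0.040 to 0.088.

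A fit of the 4 columns of 20 min alone called 6 windows lower in eco1 (8.06% of nuclear windows) and 1 higher (1.53%). Over the common denominator the same fit called 0, and the smallest adjusted p among these 7 windows was 0.0662. The window values below therefore carry a call that depends on the denominator.

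The window of DNL4, which encodes the DNA ligase of non-homologous end joining, stood at -0.0090 and 0.026 in eco1 replicates 1 and 2 and at 0.18 and 0.22 in wild type. The groups did not overlap, and the difference was -0.19 (limma adjusted p = 0.00563). It was -0.13 over the common denominator (limma adjusted p = 0.0662).

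The window of WSC3, a sensor of cell-wall stress, stood at 0.00 and -0.030 in eco1 and at 0.10 and 0.26 in wild type. Its difference of -0.19 (limma adjusted p = 0.0187) was -0.14 over the common denominator (0.0767). The window of ASE1, a microtubule-bundling protein of the spindle midzone, stood at 0.021 and -0.018 in eco1 and at 0.21 and 0.14 in wild type. Its difference of -0.17 (limma adjusted p = 0.0105) was -0.12 over the common denominator (0.0767). Both windows had eco1 values near the chromosome median and wild-type values above it.

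The window of FRE3, a ferric reductase gene, stood at 0.048 and 0.098 in eco1 and at 0.29 and 0.22 in wild type. It holds 6 rows next to the left-out stretch, and its difference of -0.18 was -0.10 over the common denominator (limma adjusted p = 0.223). The windows of THI20, a thiamine synthesis gene, and DCI1 differed by -0.14 and -0.12, against -0.097 and -0.060 over the common denominator. The single higher window, of MAM3, stood at 0.10 and 0.045 in eco1 and at -0.061 and -0.097 in wild type. Its difference of 0.15 was 0.091 over the common denominator (limma adjusted p = 0.203). Under the deposited denominators the WSC3 window was called with any 1 library left out. The calls of DNL4 (0.0623), FRE3 (0.120) and MAM3 (0.269) ended without eco1 replicate 1, and that of ASE1 without eco1 replicate 2 (0.115). The DCI1 call ended without either eco1 library (0.297 and 0.267), and that of THI20 also without wild-type replicate 2 (0.0875).

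Peaks and troughs were then located without regard to strain, as local extremes of the mean of the 4 columns with a prominence of at least 0.1 log2. There were 15 peaks and 16 troughs at 20 min, with 5 peaks on the left and 10 on the right arm. A position that is high or low in a single strain can enter the list through that strain, so counts over the list are a description. In the fit of all columns 0 of the 31 passed, as did 0% of the 359 nuclear extremes. Without adjustment 6 had p under 0.05, as had 22.6% of nuclear extremes. In the fit of the 20-min columns alone 5 of 15 peaks were lower in eco1 and 0 higher (limma adjusted p under 0.05), where 28.0% of the nuclear peaks were lower. The 5 include the positions near DNL4, WSC3, YNCO0004C and YNCO0016W, which are given below without a test. The fit used the same 4 columns that had chosen the positions, so its p-values are a description. All positions shared 1 standard error in that fit (0.0550), pooled over the nuclear extremes. Its p-values therefore do not measure the spread between libraries at a single position.

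The highest peak lay near IFM1, a mitochondrial translation initiation factor gene, at XV:278501. It reached 0.088 and 0.067 in eco1, against 0.33 and 0.34 in wild type. The groups did not overlap, with a difference of -0.26 (limma adjusted p = 0.111 in the fit of all columns and 9.67e-05 in the fit of the 20-min columns). Over the common denominator the eco1 values were 0.083 and 0.16, and the difference was -0.21 (limma adjusted p = 0.0129).

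Near DNL4, at 337501 and 10.9 kb from the centromere, the peak reached 0.054 and 0.040 in eco1, against 0.29 and 0.28 in wild type. The eco1 values again lay well below both wild-type values, by -0.24. They stood little above the chromosome median, so this position entered the list mainly through wild type. Its difference is given without a test, and was -0.15 over the common denominator.

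Near the tRNA gene YNCO0004C, at 227501, eco1 stood at -0.076 and -0.029 and wild type at 0.15 and 0.31. Both eco1 columns lay below the chromosome median, so this position entered the list through wild type alone, and its difference of -0.28 is given without a test. The eco1 values were 0.0064 and 0.020 over the common denominator, and the difference was -0.21. Near the tRNA gene YNCO0016W, at 438501, eco1 stood at 0.039 and -0.0019 and wild type at 0.23 and 0.21. Here 1 eco1 column lay below the chromosome median and the other little above it, so this position entered mainly through wild type. Its difference of -0.20 is likewise given without a test, and was -0.14 over the common denominator.

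Near WSC3, at 114501, eco1 stood at 0.0093 and 0.068 and wild type at 0.15 and 0.25. This position, too, entered mainly through wild type, and its difference of -0.16 is given without a test. It was -0.093 over the common denominator. With extremes located again over the common denominator, 2 of 43 passed, a description only, as the nuclear share is not given here. They were the IFM1 peak (limma adjusted p = 0.0368) and the trough at 709501 described below. The DNL4 peak was not among them. Next, 1 of the 4 libraries at a time was left out, with the deposited denominators and the positions located with all 4. The difference then ranged from -0.27 to -0.25 near IFM1 and from -0.24 to -0.23 near DNL4. Near WSC3 the difference ranged from -0.21 to -0.11. The difference near YNCO0016W ranged from -0.22 to -0.18.

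Other high peaks were not called. Near PHM7, at 163501, eco1 stood at 0.21 and 0.15 and wild type at 0.15 and 0.17, which overlap. Near YOR316C-A, at 908501, eco1 stood at 0.13 and 0.12 and wild type at 0.17 and 0.16, without overlap. Near TMA46, at 493501, eco1 stood at 0.065 and 0.115 and wild type at 0.023 and 0.122, which overlap. The next peak by height, near TIM18 at 874501, stood at 0.016 and 0.012 in eco1. Wild type there stood at 0.087 and 0.18, without overlap. Among the 15 peaks, 8 were lower and 7 higher in eco1, with a median difference of -0.0034, against -0.062 over the 182 nuclear peaks. With the common denominator 9 were lower and 6 higher, with a median of -0.058 (-0.062 over nuclear peaks). Both eco1 columns lay above both wild-type columns at 4 peaks, near the tRNA methyltransferase gene TRM13, YOR131C, the histone deacetylase gene HST3 and the metacaspase gene MCA1, and such peaks made up 22.0% of the nuclear ones. At HST3 the groups overlapped over the common denominator, with 0.028 and 0.0012 in eco1, against -0.011 and 0.020 in wild type.

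**Figure D2:**
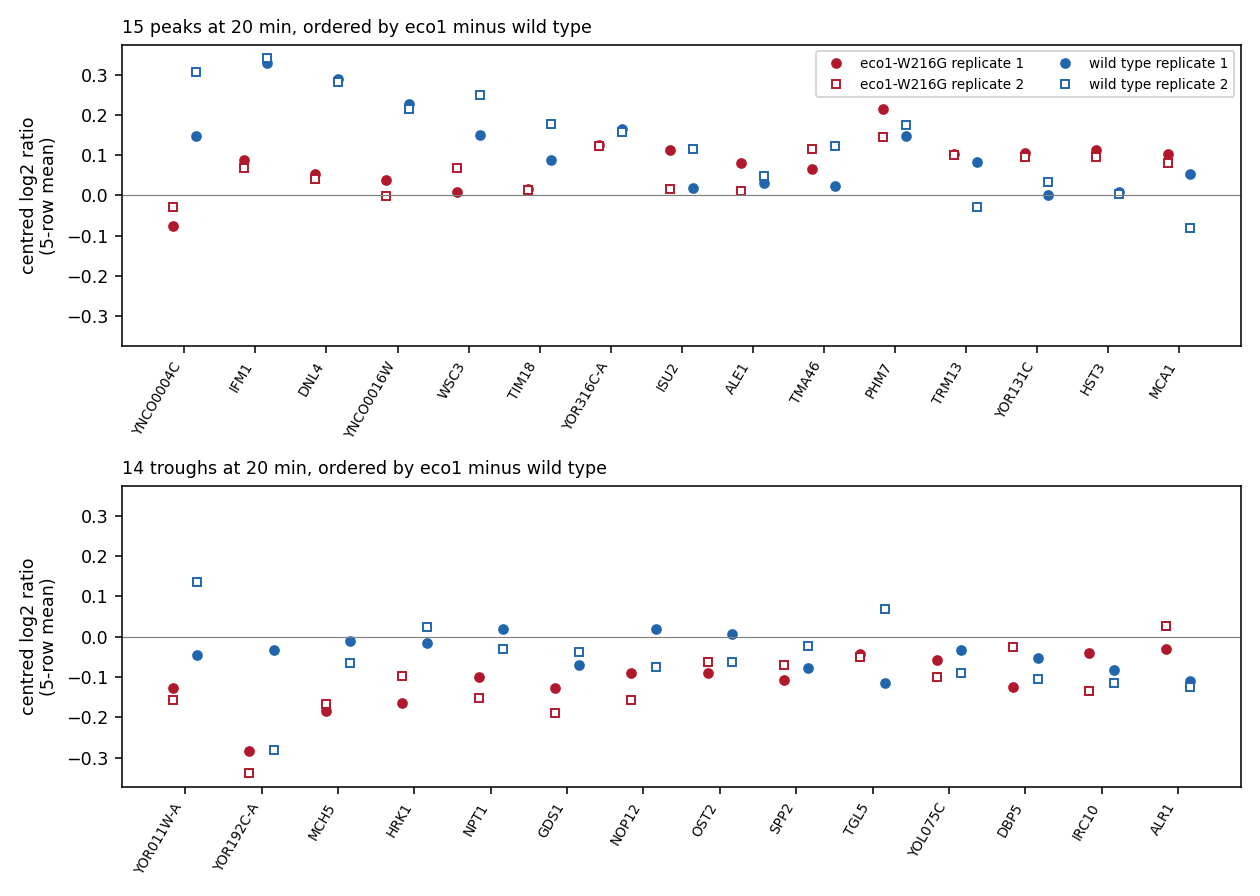
Centred log2 ratio of each column at the 15 peaks and 14 of the 16 troughs of 20 min, named by the nearest gene, eco1 beside wild type, with filled circles for replicate 1 and open squares for replicate 2. At the peaks near IFM1 and DNL4 both eco1 points lie below both wild-type points.

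Troughs were lower in eco1 at 13 of 16 positions, with a median difference of -0.094, against -0.062 over 177 nuclear troughs. Of the 16, 12 were lower over the common denominator, with a median of -0.035 (-0.016 over nuclear troughs). In the fit of the 20-min columns 3 of 16 were lower, and 20.3% of nuclear troughs were called. The 3 include the troughs near YOR011W-A and MCH5, which are given without a test. Near YOR011W-A, at 355501, eco1 stood at -0.13 and -0.16 and wild type at -0.045 and 0.14. The wild-type mean there was 0.045, above the chromosome median, so this position entered the list mainly through eco1. Its difference of -0.19 is given without a test, and was -0.11 over the common denominator.

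Near the riboflavin transporter gene MCH5, at 890501, eco1 stood at -0.19 and -0.17 and wild type at -0.011 and -0.065. This position entered the list mainly through eco1, so its difference of -0.14 is given without a test. It was -0.048 over the common denominator. The deepest trough lay at the retrotransposon gene YOR192C-A, at 709501, with -0.28 and -0.34 in eco1, against -0.033 and -0.28 in wild type. A row under this trough held only 3 to 15 reads per library. The groups at the trough barely separated, with -0.2846 in eco1 replicate 1 and -0.2823 in wild-type replicate 2. Its difference was -0.15 (limma adjusted p = 0.0237), and -0.21 over the common denominator (0.0129). With each column's relation to 0-min coverage removed it was -0.054 (0.495). Deep troughs near GDS1 and IRC10 were not called. Near GDS1, at 1004501, eco1 stood at -0.13 and -0.19 and wild type at -0.071 and -0.039, without overlap. Near IRC10, at 297501, eco1 stood at -0.040 and -0.13 and wild type at -0.083 and -0.11, which overlap, with eco1 higher by 0.012. With a library left out, the difference near YOR011W-A ranged from -0.28 to -0.097. The YOR192C-A call held only without wild-type replicate 2, and the difference there ranged from -0.28 to -0.030. Near MCH5 the difference ranged from -0.16 to -0.11.

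The centromere and the arms were compared next. Within 20 kb of the centromere the mean at 20 min was -0.025 and -0.0087 in eco1, against 0.063 and 0.066 in wild type. At 40 min it was -0.0012 and -0.0064 in eco1, against 0.057 and 0.064 in wild type. At both times the eco1 columns lay below both wild-type columns, by -0.081 and -0.064. An exact two-sided permutation test gave p = 0.333 for each, the smallest that 2 libraries against 2 allow. Over the common denominator the differences were -0.051 and -0.038, with eco1 at 0.014 and 0.0084 at 20 min and wild type at 0.069 and 0.056.

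The difference between the arms (left minus right) overlapped between the strains at both times with the deposited denominators. At 20 min it was 0.014 and -0.0023 in eco1, against -9.3e-05 and -0.0050 in wild type. At 40 min it was 0.018 and 0.029 in eco1, against 0.035 and 0.029 in wild type. The exact permutation p was 0.667 at each time. The 20-min values over the common denominator were 0.0088 and -0.00068 in eco1, against -0.00084 and -0.0042 in wild type, which do not overlap (exact permutation p = 0.333, the smallest possible). At 40 min the strain difference was -0.0083, and -0.0099 over the common denominator. Between 20 and 40 min the arm difference changed by 0.0045 and 0.032 in eco1, against 0.035 and 0.034 in wild type. Neither change passed a limma fit over the 16 chromosomes (adjusted p = 0.501 in eco1 and 0.138 in wild type).

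The spread of the profile, as the SD over windows at 20 min, was 0.0571 and 0.0461 in eco1, against 0.0608 and 0.0754 in wild type (exact permutation p = 0.333). The eco1 columns of 40 min had 0.0388 and 0.0623, against 0.0469 and 0.0662 in wild type (exact permutation p = 0.667). Counting error alone gives 0.0222 to 0.0281 per window, so all 8 profiles vary more than counting error allows. The strain differences in SD over the common denominator were -0.0167 and -0.0040, against -0.0165 and -0.0060 with the deposited denominators.

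**Figure D3:**
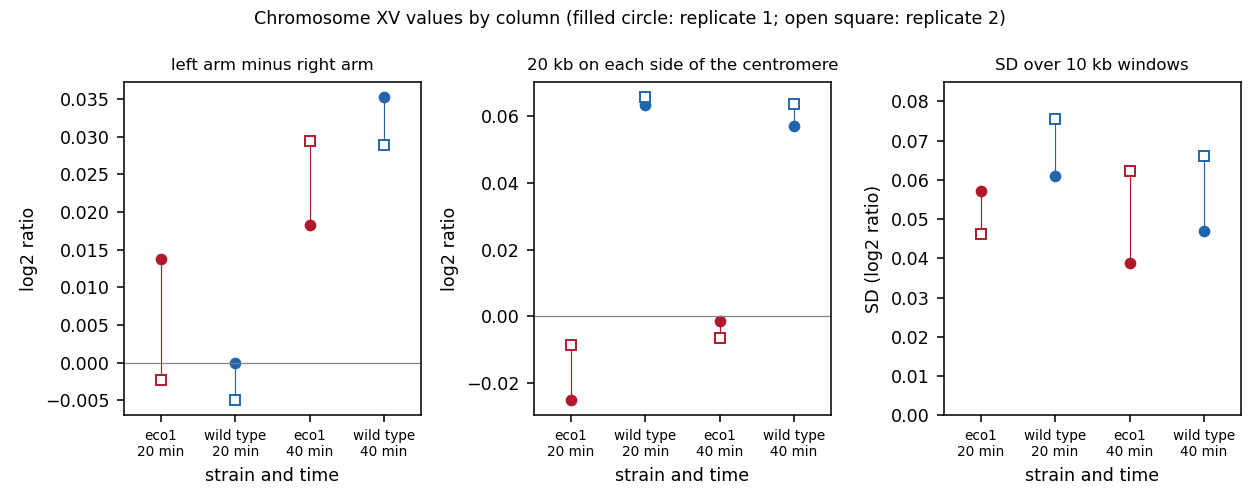
Value of each column for the arm difference, the centromere region and the window SD, all in log2 units, eco1 left of wild type within each time. The eco1 points for the centromere region lie below 0 and the wild-type points at 0.057 to 0.066.

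Loci of 2 classes were followed through the same rows. Around the 20 tRNA genes (107 rows) the mean at 20 min was -0.022 in both eco1 columns and 0.075 and 0.089 in wild type. Of the 17 windows with a tRNA gene 15 were lower in eco1 (88.2%), against 60.2% of all 103 windows. The tRNA means over the common denominator were 0.0008 and -0.00093 in eco1, against 0.072 and 0.088 in wild type, with 13 of 17 windows lower (76.5%, against 58.3% of all). Those called in the fit of the 20-min columns were the windows of WSC3, THI20 and ASE1, and none of them was called over the common denominator. Around the 13 ribosomal protein genes (77 rows) the means were -0.045 and -0.032 in eco1, against 0.0047 and -0.027 in wild type, and 7 of 11 windows were lower. The ribosomal protein means over the common denominator were -0.021 and -0.015 in eco1, against -0.00064 and -0.026 in wild type, which overlap.

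At 40 min the eco1 replicates did not agree, which limits every comparison at that time. Over the 103 windows the 2 eco1 columns correlated with r = -0.15, and the wild-type columns with r = 0.60. Replicate 1 of eco1 at 40 min correlated with both wild-type 40-min columns at r = 0.52. Its replicate 2 correlated with the eco1 20-min columns at r = 0.57 and 0.59. With wild-type 40-min replicates 1 and 2 that column correlated at r = 0.0059 and -0.30, and over the common denominator at 0.36 and -0.11. These values describe windows of one chromosome, which share denominators and base composition. Both eco1 40-min libraries lack the left-out stretch, with 3 and 2 reads. Over the common denominator the eco1 40-min columns correlated with r = 0.084.

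**Figure D4:**
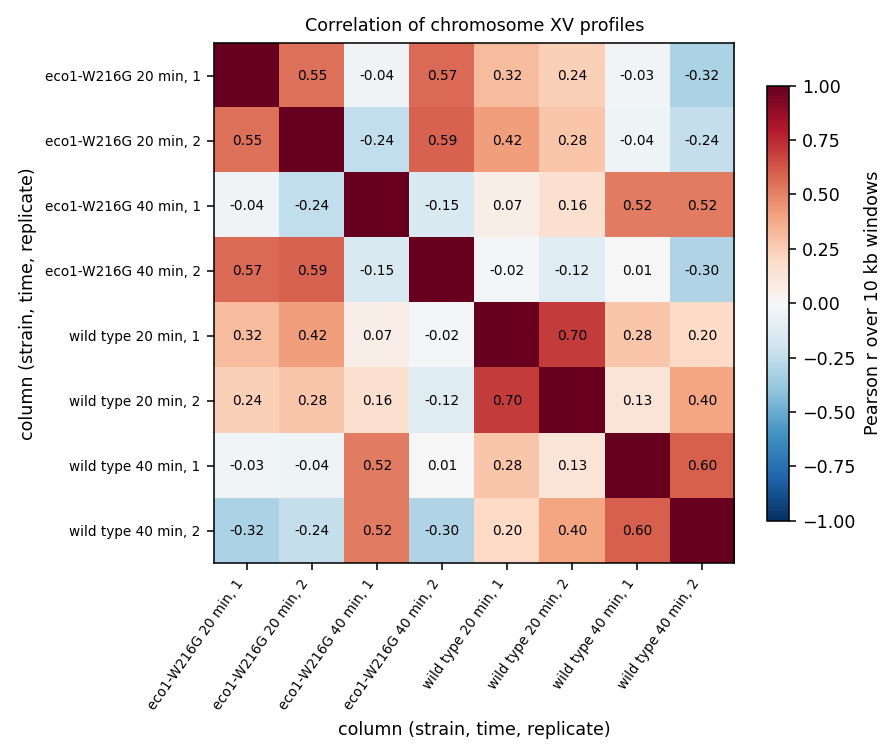
Pearson correlation between the 8 columns over the 103 windows of 10 kb, eco1 before wild type. The pair of eco1 40-min replicates stands at -0.15, and the pairs of the other groups at 0.55 to 0.70.

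Of the 103 windows at 40 min, 0 passed (limma adjusted p under 0.05), as did 0% of nuclear windows. Without adjustment 9 had p under 0.05, as had 13.8% of nuclear windows. The largest differences were those of DCI1 (-0.15) and of ELG1, which unloads the sliding clamp PCNA (-0.14). These were -0.099 and -0.068 over the common denominator, where 0 windows passed as well. Of 24 extremes at 40 min 0 passed, as did 0% of nuclear extremes, with 2 at an unadjusted p under 0.05 (13.7% of nuclear extremes).

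The height of peaks over troughs at 40 min was 0.19 and -0.053 in eco1, against 0.14 and 0.28 in wild type. The strain difference in height was -0.14, and -0.033 over the common denominator with extremes located again. Near ASE1, at 434501, eco1 stood at 0.14 and -0.17 at 40 min and wild type at 0.19 and 0.21. Near IFM1 the eco1 40-min values were 0.14 and -0.051 and the wild-type values 0.084 and 0.19, so the gap of 20 min was not seen in both replicates.

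**Figure D5:**
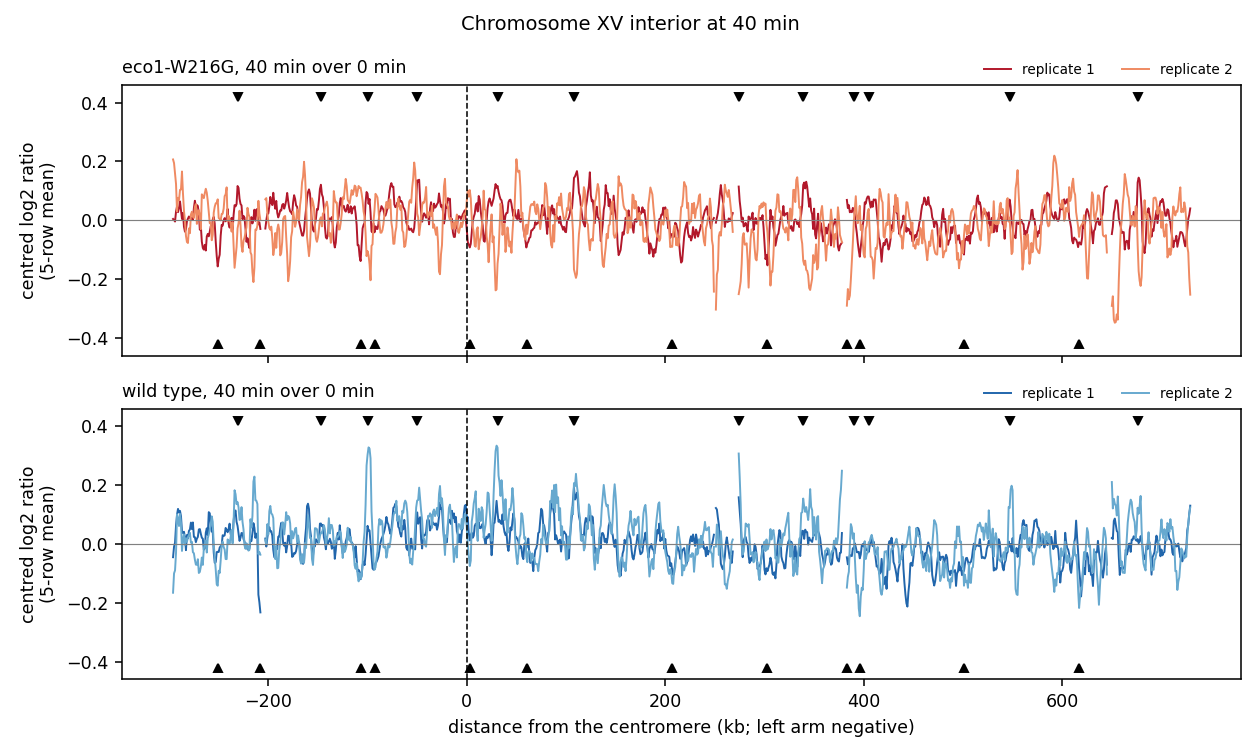
Running mean over 5 rows of the centred log2 ratio at 40 min against distance from the centromere in kb, eco1 above wild type, with 1 line per replicate. The 2 eco1 lines often run in opposite directions, and their windows correlate at -0.15.

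From 20 to 40 min, the 15 peaks of 20 min were followed in each strain, with the positions chosen at 20 min. Their mean changed by -0.045 and -0.034 in eco1 and by -0.10 and -0.081 in wild type. It was lower at 40 min at 10 and 10 of the 15 peaks in eco1 and at 15 and 12 in wild type. The 16 troughs changed by 0.14 and 0.0031 in eco1 and by 0.061 and 0.12 in wild type. Because the positions were chosen by their 20-min values, these changes are a description.

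No window passed over time in either strain. In eco1 0 of 103 windows passed (limma, 0% of nuclear windows), with 3 at an unadjusted p under 0.05 (2.37%). In wild type 0 passed (0%), with 17 at an unadjusted p under 0.05 (12.3%). The change of the FRE3 window was -0.11 in eco1 (limma adjusted p = 0.994) and -0.20 in wild type (0.066). For the strain-by-time term 0 windows passed (0%), with 2 at an unadjusted p under 0.05 (2.04%), and the largest values were those of DNL4 (0.14) and WSC3 (0.13).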

How the data were processed

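The authors deposited log2 ratios and smoothed columns for 1000-bp rows. Per the submitters' processing notes, CASAVA 1.8.2, Bowtie and sacCer3 were used, with no roles given. The deposited smoothed columns, a score, were not used. The values fit log2 of RPM (reads scaled to library size) plus 1 over the same in a 0-min library. That both later columns of a replicate share 1 denominator was settled from the values. Its strain was not, and the eco1 denominators lack, or carry only weakly, marks of the later eco1 libraries.

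Whole reads were recovered for all 12165 rows (10 had a further solution, and the smallest was taken). Rows were averaged in windows of 10 kb with at least 5 rows, each chromosome was centred on its own interior median, and limma 3.58.1 in R 4.3.3 was fitted to 4 groups with Benjamini-Hochberg adjustment over all nuclear windows or extremes. The fits were tested on simulated data. Windows were named by largest difference or by a call in the 20-min fit, and positions by height or by such a call, with the nearest gene. Members and lists were chosen with earlier results of these data known. Replicate numbers did not pair the strains (r = -0.045 at 20 min and -0.39 at 40 min). Lists of origins and Ty elements were not analysed here, and 2 troughs are not reported here.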

Additional observations from a re-analysis of the deposited data

Results flagged for a closer look

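Within 20 kb of the chromosome XV centromere the change between 20 and 40 min ran in opposite directions in the strains. It was positive in both eco1 replicates, with a mean of 0.0131, and negative in both wild-type replicates, with a mean of -0.0042. The difference between the strains was not tested. Over the common denominator the changes were 0.023 and -0.0032 in eco1, against -0.0023 and -0.0038 in wild type, so the opposite directions are lost in eco1 replicate 2.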

How the results depend on the processing

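With the wild-type 0-min libraries below all columns, the fit of the 20-min columns called 0 windows instead of 7 and, with extremes located again, 2 of 43 extremes instead of 8 of 31. The nuclear shares in that setting are not given here, so these counts are a description. The difference in peak-over-trough height at 20 min, 0.012 as reported, turned to -0.0117, and that of the trough means at 40 min to -0.0029.

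For windows at 20 min the count of 0 in the fit of all columns was 4 with nuclear centring, 2 with chromosome XV centring throughout and 7 without centring. The 2 groups alone gave 7, with the coverage correction 6, and without rows under 100 reads 14. With a column left out of that fit the count was 2 (eco1 replicate 1), 5 (eco1 replicate 2), 18 (wild-type replicate 1) and 8 (wild-type replicate 2). Leaving 1 library out of the fit of all columns gave 0 to 4 windows at 20 min and 0 to 9 at 40 min, where 9 came without eco1 40-min replicate 1. At 40 min no centring gave 1, and the 2 groups without eco1 replicate 1 gave 6. Wild type over time gave 2 windows with the MAD filter, 1 with interiors only, 1 without rows under 100 reads, in the fit of both groups too, and 0 to 4 with a library left out.

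For extremes at 20 min, a 9-row mean gave 1 call, the MAD filter 1, the 2 groups alone 8, with the coverage correction 6, and without rows under 100 reads 9. With a column left out of that fit there were 4 (eco1 replicate 1), 3 (eco1 replicate 2), 10 (wild-type replicate 1) and 9 (wild-type replicate 2), and 0 to 6 with a library left out of the fit of all columns. At 40 min the range was 0 to 10, with 10 without eco1 replicate 1, and 2 in the 2 groups without it. Crossing the replicate numbers at 40 min gave 2 calls.

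The difference in peak-over-trough height at 20 min was -0.0586 with a 9-row mean, -0.084 with prominence 0.15, -0.0108 with the coverage correction, -0.0271 when called in replicates 2 and read in replicates 1, and -0.126 to 0.0717 with a library left out. At 40 min it was -0.141 as reported, 0.0084 when called in replicates 2 and read in replicates 1, and -0.210 to 0.208 with a library left out. The arm difference at 40 min was 0.0071 with the median of each arm. The window SD difference at 40 min was -0.0177 to 0.0058 with a library left out.

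The difference at the PHM7 peak turned to -0.065 with a 9-row mean and ranged from -0.0153 (without eco1 replicate 1) to 0.0537 with a library left out. The IRC10 trough turned to -0.0823 with a 9-row mean, -0.0352 without eco1 replicate 1 and -0.0038 without wild-type replicate 2, and reached 0.0590 without eco1 replicate 2. With a library left out, the difference of the trough means ranged from -0.0942 to 0.0185 at 20 min and from -0.134 to 0.0734 at 40 min, and that of the peak means at 40 min from -0.136 to 0.0742. The cause of these changes was not tested. With the replicate block the arm differences were 0.0082 and -0.0083, and it changed no call.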
